A study of Homo sapiens with 8 samples.

Results

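The genes that encode the proteins of the cytosolic ribosome were examined for SMAD3 at their promoters in A549 cells, before and after stimulation with TGFβ1. A gene was taken as a member when an array probe carried its symbol and the symbol had the form of a cytosolic ribosomal protein of the large subunit (RPL), the small subunit (RPS, RPSA) or the stalk (RPLP). The rule found 82 of the 17133 genes on the arrays, with 1420 of the 474411 probes. The rule uses no measured value, though it was set with earlier results of these data known.

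A549 is an established human lung adenocarcinoma line of alveolar epithelial origin. The 2 groups were unstimulated cells and cells given 2 ng/ml TGFβ1, with 2 replicates each, fewer than the study describes. The duration of the treatment is given only as an upper limit in the labels, and the sources used here name more than one time. Cells of both groups were deprived of serum beforehand. On every array, DNA from an immunoprecipitation (IP) with an antibody to SMAD3 carried the dye Cy5, and DNA from a mock IP with an anti-FLAG antibody carried Cy3. Both DNAs had been amplified by PCR after linker ligation. Each replicate covered 2 slides with different probes, which gave 8 arrays. All cells were of a single line, and nothing beyond the replicate numbers says how separately they were grown, so p-values measure only the spread between these samples.

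TGFβ1 receptors phosphorylate SMAD3, which then enters the nucleus with SMAD4 and binds DNA at short motifs, usually beside other transcription factors. Ribosomal protein genes are transcribed at high levels in growing cells from compact promoters without a TATA box in most cases. Their transcripts begin with a C and a run of pyrimidines, the terminal oligopyrimidine tract through which mTOR signaling controls their translation. Several ribosomal proteins also act outside the ribosome, for example RPL5 and RPL11, which bind the p53 ligase MDM2.

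The measure was the log2 ratio of the SMAD3 IP signal over the mock IP signal, centered on the median of each array. It was averaged over the probes of a gene between 2000 bp upstream and 800 bp downstream of the annotated start. A value of 0 is thus the ratio of the typical probe, not the absence of SMAD3. The members had 591 probes in this window, between 1 and 16 in a gene with a probe there and 7 in the median. The 74 members with at least 3 such probes were tested. Fewer were present at 7 members, among them RPL12, RPL18, RPL23, RPL4, RPS2 and RPS3, and RPL7A had none. Among all members, 10 shared 31 window probes with a neighboring gene, such as RPL7 with RDH10 and RPL23A with RAB34, and signal there cannot be assigned to either gene. Over whole arrays, between 38.7% and 51.5% of probes were well above background in both channels. Of the members' window probes, 47.9% were well above background in both channels on all 4 arrays that carried them, against 46.8% for all genes. These are called measured probes. At the other probes, the ratio rests in part on background-level substitutes set by the scanner software.

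Promoters of 66 members were found in RefSeq (GRCh38.p14), and 4 of them are shown because the results turn on them or because the gene is a reference point: RPLP1 and RPS13 had the largest rise and fall of the mean ratio, RPS19 is the most frequently mutated gene in Diamond-Blackfan anemia, and RPSA encodes a small subunit protein also known as the laminin receptor precursor. The 250 bases before the start run from 5′ to 3′ on the strand of the gene, at chr15:69452568-69452817 on the plus strand for RPLP1, chr11:17077668-17077917 on the minus strand for RPS13, chr19:41860005-41860254 on the plus strand for RPS19 and chr3:39406470-39406719 on the plus strand for RPSA. Capitals mark matches, on either strand, to the motifs described next. RPLP1 holds the GC-rich SMAD element GGCGCC at 2 places and 1 SP1 motif, RPS13 and RPSA hold 1 SP1 motif each, and RPS19 holds none of the motifs.
RPLP1: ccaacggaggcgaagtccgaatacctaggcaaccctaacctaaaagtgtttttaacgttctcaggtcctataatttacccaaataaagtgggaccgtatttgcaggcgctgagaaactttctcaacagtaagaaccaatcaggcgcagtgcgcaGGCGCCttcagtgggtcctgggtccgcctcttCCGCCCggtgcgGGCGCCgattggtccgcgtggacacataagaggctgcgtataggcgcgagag
RPS13: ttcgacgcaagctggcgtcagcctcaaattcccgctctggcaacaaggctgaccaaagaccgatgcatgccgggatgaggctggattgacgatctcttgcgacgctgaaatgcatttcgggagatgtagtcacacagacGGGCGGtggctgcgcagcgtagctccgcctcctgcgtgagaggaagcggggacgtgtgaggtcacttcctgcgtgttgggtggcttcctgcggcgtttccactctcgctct
RPS19: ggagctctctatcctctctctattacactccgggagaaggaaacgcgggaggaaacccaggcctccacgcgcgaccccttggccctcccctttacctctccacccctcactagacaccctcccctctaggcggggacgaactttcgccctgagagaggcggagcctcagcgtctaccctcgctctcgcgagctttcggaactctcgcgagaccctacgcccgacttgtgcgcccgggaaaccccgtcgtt
RPSA: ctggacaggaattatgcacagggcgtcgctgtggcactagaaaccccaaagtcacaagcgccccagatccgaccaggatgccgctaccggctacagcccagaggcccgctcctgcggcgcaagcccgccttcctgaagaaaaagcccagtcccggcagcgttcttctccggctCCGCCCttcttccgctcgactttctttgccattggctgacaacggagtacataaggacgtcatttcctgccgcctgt
The next lines run from 10 bases before to 15 bases after the start, with the pyrimidine tract in capitals. All 4 genes have one.
RPLP1 around the start: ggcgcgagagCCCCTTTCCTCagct
RPS13 around the start: ctctcgCTCTCCTTTCgttgcctga
RPS19 around the start: ccccgtcgttCCCTTTCCCCTggct
RPSA around the start: tgccgcctgtCTTTTCCgtgctacc

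In the table, the 66 genes had 82 promoter entries of 300 bases, 250 before and 50 after the start. The pyrimidine tract, here a C followed by at least 4 pyrimidines within 5 bases of the start, was present in 57 of the 82 entries (69.5%), against 21.1% of all 35116 entries. The ETS motif CCGGAAG occurred in 34.1% of the members' entries and 10.3% of all entries, searched on both strands. The YY1 motif AAGATGG was present in 9.76% against 5.84%, the SP1 motif GGGCGG in 54.9% against 45.0% and the TATA box TATAAA in 7.32% against 11.5%. The SMAD element CAGACA was found in 19 member entries (23.2%), against 16.9% of all entries. GGCGCC, which can overlap GGGCGG, was found in 18 (22.0%), against 19.2%. A match describes these letters only and not a bound site.

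In unstimulated cells the ribosomal protein genes did not lie on one side of the array median. RPS13, RPS27L and RPL35 were among those with the highest SMAD3 IP over mock IP, and RPS15A, RPL36A, RPL15 and RPS16 had the lowest. The ratio was higher than the array median at 18 and lower at 22 of the 74 tested members (limma, Benjamini-Hochberg adjusted over 16299 genes), which is 54.1%, and 34 did not pass. Over all tested genes, 20.7% were higher and 38.1% lower, 58.8% together. The median of the members was -0.03, and that of all genes was -0.12.

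RPS13, a small subunit protein near the subunit interface, had ratios of 2.64 and 2.20 in the unstimulated replicates. RPS27L, a p53-inducible paralog of RPS27, had 1.68 and 1.82. RPL35, a large subunit protein at the exit of the peptide tunnel, had 1.25 and 1.07. These 3 genes lay above the array median in both replicates by more than the replicates differed. None of the 3 passed with normexp background correction, which damps ratios at low signal (adjusted p = 0.0781, 0.0549 and 0.115). In a narrower window, from 500 bp upstream to 250 bp downstream, RPS13 was at 0.57 (adjusted p = 0.123) and RPS27L at -0.26 (adjusted p = 0.124), and with all annotated probes RPL35 was at -0.040 (adjusted p = 0.692). At the other end, RPS15A, a small subunit protein, had ratios of -2.93 and -2.82, but with all annotated probes it lay above the median, at 0.48 (adjusted p = 0.000398). RPL36A, a large subunit protein at the tRNA exit site, had -1.88 and -2.01. RPL15, a large subunit protein, had -2.08 and -1.59, so that more mock than SMAD3 DNA was recovered there relative to the array as a whole.

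After TGFβ1, RPL5, RPL35 and RPL37 were among the highest, and RPL6, RPS27A, RPL15 and RPL31 were the lowest. The ratio was above the array median at 18 members and below it at 28 (62.2% of 74), against 16.5% higher and 42.5% lower among all genes, 59.0% together. The median was -0.15 for the members and -0.18 for all genes. RPL35 had ratios of 0.87 and 0.58, and with all annotated probes it lay below the median, at -0.56 (adjusted p = 0.00068). RPL37, a large subunit protein, had 0.80 and 0.58, and it did not pass with normexp (0.42, adjusted p = 0.124). RPL6, a large subunit protein, had -2.64 and -1.98. RPL31, another protein beside the tunnel exit, had -1.92 and -2.11. Over the main window, the replicates of each of these genes lay on the same side of the median.

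In both conditions, 7 were higher, among them RPL14, RPL35, RPS18, RPS19, RPS24 and RPS7, and 12 were lower, among them RPL15, RPS15A, RPL36A, RPL31 and the stalk protein RPLP0. Another 6 were higher before and lower after TGFβ1, 4 the reverse, and 17 passed in neither condition. Of all 16299 tested genes, 1341 were higher and 3694 lower in both conditions. A further 808 were higher before and lower after, 464 the reverse, and 3394 passed in neither. Across the 74 members, the 2 conditions correlated with r = 0.42, and across all genes with r = 0.27, which is a description, since genes share arrays. Replicates of 1 condition correlated with 0.96 and 0.93 across the members.

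**Figure D1:**
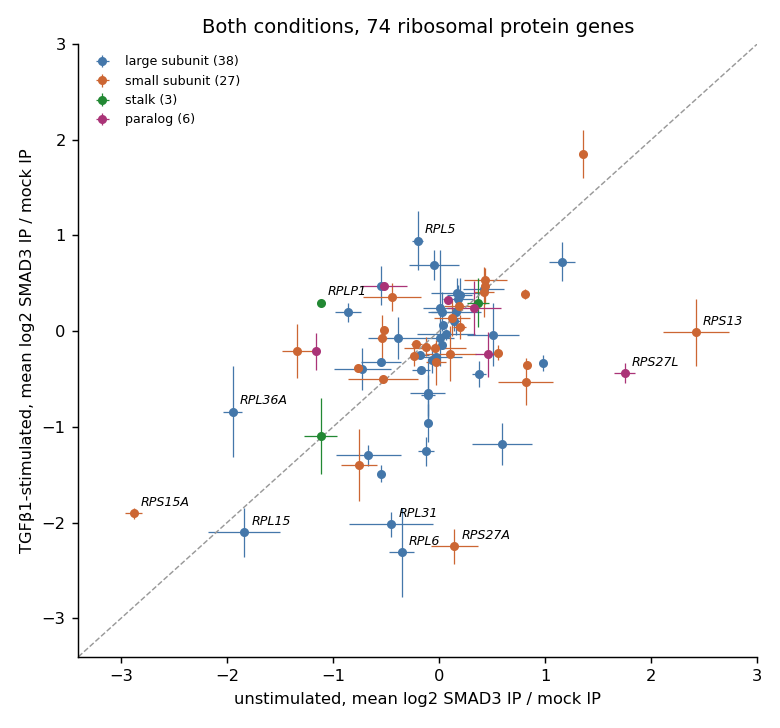
Mean log2 SMAD3 IP over mock IP ratio relative to the array median, unstimulated cells on the x axis and TGFβ1-stimulated cells on the y axis, for the 74 tested ribosomal protein genes, with bars for the SD of 2 replicates and a dashed line of equality. Most genes cluster near 0, RPS15A and RPL15 are low in both conditions, and RPS13 and RPS27L are high only on the x axis.

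The centering sets which side a gene falls on. With the log2 ratios not centered, 45 members were higher and 9 lower in unstimulated cells and 51 and 11 after TGFβ1. Over all genes, 54.2% were then higher and 17.4% lower in unstimulated cells and 60.7% and 16.1% after TGFβ1. With loess within arrays the splits were 36 to 12 and 38 to 14, against 41.8% to 20.9% and 42.8% to 20.8% of all genes. The median of all genes moved from -0.12 to 0.14 in unstimulated cells and from -0.18 to 0.16 in stimulated cells. Between conditions, the split of 15 to 21 became 18 to 18 without centering, against 27.2% to 21.8% of all genes. Leaving out the stimulated replicate 1 or 2 lowered the counts of higher and of lower members after TGFβ1, and the shares of all genes as well. The median after TGFβ1 was then -0.17 or -0.16 for the members and -0.21 or -0.16 for all genes.

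The ratio differed between the conditions at individual ribosomal protein genes, in both directions. It rose at 15 and fell at 21 of the 74 members (48.6%), against 20.3% and 27.5% of all genes, 47.7% together, so the share was near that of the arrays as a whole. The median change was -0.04 for members and -0.06 for all genes. In 47 members (63.5%) the replicates of the conditions did not overlap, against 74.8% of all genes. The change was larger than 1 on the log2 scale in 16 members (21.6%), against 18.7% of all genes. The largest rises were those of RPLP1, RPL5, RPS16 and RPL36A, and the largest falls those of RPS13, RPS27A, RPS27L and RPL6. With normexp, 8 of the 36 changed members passed in the same direction. RPL5, RPL6 and RPS27A were among them, and RPLP1 (0.48, adjusted p = 0.146), RPS16 (0.54, adjusted p = 0.0641), RPL36A (0.52, adjusted p = 0.271), RPS13 (-1.42, adjusted p = 0.141) and RPS27L (-1.22, adjusted p = 0.0943) were not. Of the 26 changed members with at least 3 measured probes, 18 passed on these probes alone.

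**Figure D2:**
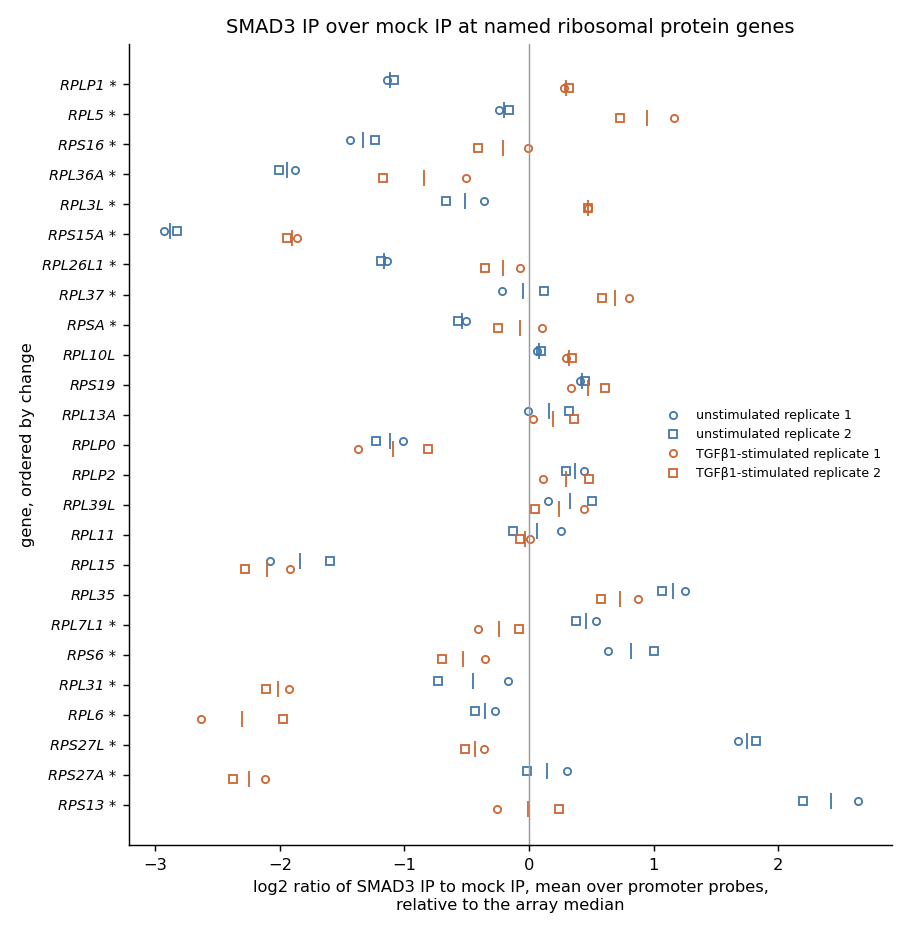
Log2 SMAD3 IP over mock IP ratio averaged over the promoter probes, relative to the array median, for the named members on the y axis in order of change. Circles are replicate 1, squares replicate 2 and ticks the mean of 2, in blue for unstimulated and orange for TGFβ1-stimulated cells, and an asterisk marks an adjusted p under 0.05 for the change. The replicates of the conditions are far apart at the top and bottom and overlap in the middle, for example at RPS19 and RPL11.

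RPL5, a large subunit protein of the 5S ribonucleoprotein that also binds MDM2, had ratios of -0.24 and -0.16 in unstimulated cells and 1.16 and 0.73 after TGFβ1. The groups did not overlap, and the rise was 1.15 (SE 0.17, adjusted p = 0.000858). At its measured probe 34 bp upstream of the start, the ratio went from 0.48 and 0.78 to 3.74 and 3.53, a rise of 3.0 (SE 0.17, adjusted p = 0.00472). There the SMAD3 IP signal rose by 1.95 while that of the mock IP moved by -0.94, both on the log2 scale and without a test. RPL5 had 2 measured probes among 5, and both were higher in the stimulated replicates.

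RPS16, a small subunit protein at the decoding side, had ratios of -1.44 and -1.23 before and -0.0044 and -0.41 after TGFβ1, a rise of 1.13 (SE 0.17, adjusted p = 0.000998). The stimulated replicates were both nearer to the array median. Its probe 271 bp downstream of the start went from -1.58 and -0.24 to 4.60 and 4.67, a rise of 5.54 (SE 0.54, adjusted p = 0.0120). The SMAD3 IP signal at this probe was higher by 4.69, whereas over the whole window it moved by only -0.20.

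RPL36A went from -1.88 and -2.01 to -0.50 and -1.18, a rise of 1.11 (SE 0.22, adjusted p = 0.00352), and stayed below the array median in all 4 samples. The mock IP signal over its window fell by 2.12 on the log2 scale (adjusted p = 0.0133). At the probe 349 bp upstream of the start, the ratio rose by 4.38 (SE 0.45, adjusted p = 0.0136), from -3.62 and -3.50 to 1.38 and 0.26. Both channels were lower there after TGFβ1, the mock IP by -6.45 and the SMAD3 IP by -2.0.

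RPLP1, one of the acidic proteins of the stalk that recruits elongation factors, had ratios of -1.14 and -1.09 before and 0.28 and 0.32 after TGFβ1. This was the largest rise among the members, 1.41 (SE 0.13, adjusted p = 6.91e-05). It was not seen at the 4 measured probes of its 12, where the mean change was -0.10 (adjusted p = 0.692). RPLP1 was the only one of the 36 changed members whose direction turned on measured probes. At the probe 198 bp upstream, both channels were well above background in the unstimulated replicates, with ratios of -5.55 and -5.51, and neither channel was in a stimulated one. Close to the start, 46 bp upstream, the ratio was high in all samples, 3.14 and 3.22 before and 2.49 and 2.59 after, a fall of 0.64 (SE 0.11, adjusted p = 0.0365).

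RPS13 fell from 2.64 and 2.20 to -0.26 and 0.24, a change of -2.43 (SE 0.21, adjusted p = 4.91e-05), or 5.39-fold lower. Most of this came from a pair of probes 745 and 506 bp upstream. Both channels were well above background there in unstimulated cells, with ratios of 7.90 and 7.47 at the first and 5.18 and 5.06 at the second. After TGFβ1 the SMAD3 IP was well above background on 1 of 2 arrays at the first and on 0 of 2 at the second. At the measured probe 11 bp upstream the ratio fell from 2.67 and 3.01 to 0.80 and 1.31 (change -1.79, SE 0.26, adjusted p = 0.0271). In the narrower window, which leaves out the pair, the change of the gene was -0.16 (adjusted p = 0.770).

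RPS27L fell from 1.68 and 1.82 to -0.36 and -0.51, a change of -2.19 (SE 0.14, adjusted p = 9.79e-06), and the groups lay on opposite sides of the median. At the measured probe 452 bp downstream of the start, the ratio fell from 6.83 and 6.93 to 1.20 and 0.33. That change of -6.12 (SE 0.36, adjusted p = 0.00488) went with a SMAD3 IP signal lower by -8.31. A measured probe 255 bp downstream had 0.99 and 1.29 before and 1.67 and 2.06 after, so the fall did not extend over the whole promoter.

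RPS27A, which encodes a fusion of ubiquitin with a small subunit protein, had ratios of 0.30 and -0.01 before and -2.12 and -2.38 after TGFβ1. The change was -2.39 (SE 0.17, adjusted p = 1.48e-05), and the mock IP signal rose by 3.51 (adjusted p = 0.0243). In the narrower window the change was -0.42 (adjusted p = 0.114). At the measured probe 520 bp downstream, the ratio changed by -3.54 (SE 0.39, adjusted p = 0.0152) and the mock IP by 5.64. Larger shifts lay 626 bp downstream (0.20 and -0.17 before, -3.93 and -4.90 after) and 747 bp downstream (0.81 and -1.39 before, -7.80 and -7.28 after). Before TGFβ1, the SMAD3 IP there was well above background on 0 and 1 of 2 arrays. On the 3 measured probes of RPS27A alone, the change was -1.60 (adjusted p = 7.17e-05). RPL6 went from -0.27 and -0.43 to -2.64 and -1.98, a change of -1.96 (SE 0.21, adjusted p = 0.000167), with a mock IP signal higher by 2.96 (adjusted p = 0.00788). Its measured probes 187, 316 and 433 bp downstream were all lower after TGFβ1, the first of them by -5.82 (SE 0.97, adjusted p = 0.0372).

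**Figure D3:**
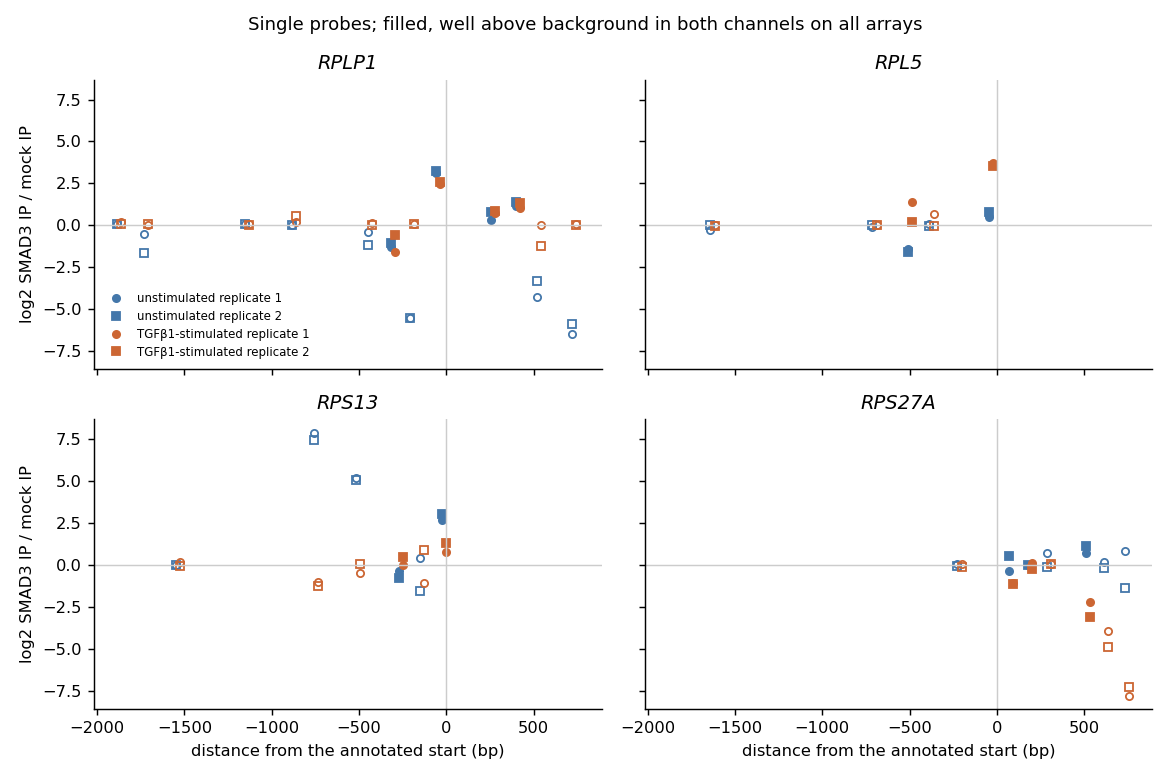
Log2 SMAD3 IP over mock IP ratio at single probes (y axis) against the distance from the annotated start in bp (x axis, negative upstream), for RPLP1, RPL5, RPS13 and RPS27A, with the conditions drawn slightly apart and filled marks for probes well above background in both channels on all arrays. The change of each gene comes from few probes, mainly those 34 and 498 bp upstream in RPL5, and mainly from open marks in RPLP1, RPS13 and RPS27A.

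A ratio can change through either channel, so both were tested alone, each array centered on its median. The SMAD3 IP signal rose at 0 members and fell at 2, RPS13 and RPS27L, against 0.804% and 1.74% of all genes, 2.55% together. At an unadjusted p under 0.05 in limma, 5 were higher and 8 lower. The unstimulated SMAD3 IP signals differed widely between replicates at many members on slide 1, though not at all. Their SD was 1.43 at RPL15 and 1.05 at RPL8, but 0.10 at RPL5. At RPS13 and RPS27L, on slide 2, it was 0.0021 and 0.11, and 0.48 and 0.20 after TGFβ1. A change was harder to call where replicates differed widely, so few calls do not show that the signal was unchanged. The mock IP signal rose at 6 members (RPL22, RPL38, RPL6, RPS27A, RPS3A and RPS6) and fell at 4, among them RPL36A, RPLP1 and RPS15A, against 6.37% and 7.54% of all genes, 13.9% together. RPS13 had SMAD3 IP signals of 4.44 in both unstimulated replicates and of 0.94 and 1.63 after TGFβ1, a change of -3.16 (adjusted p = 0.0120). RPS27L had 4.82 and 4.98 before and 2.15 and 2.44 after, a change of -2.61 (adjusted p = 0.0122). In both genes the groups were far apart, and the mock IP did not pass (-0.79, adjusted p = 0.0940 at RPS13 and -0.49, adjusted p = 0.206 at RPS27L).

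Among the 15 members whose ratio rose, the mock IP moved further than the SMAD3 IP in 12 and was lower in all 15. Among the 21 whose ratio fell, the mock IP moved further in 16 and was higher in 17. The change of the ratio correlated across the 74 members with r = -0.68 with that of the mock IP and r = 0.17 with that of the SMAD3 IP, and across all genes with -0.71 and 0.22. The ratio is computed from both signals, so these values describe which channel moved and carry no test. RPS6, the small subunit protein phosphorylated by S6 kinase, is an example. Its ratio was 0.63 and 1.0 before and -0.35 and -0.70 after (change -1.34, SE 0.18, adjusted p = 0.00052), while the mock IP rose by 1.88 (adjusted p = 0.0299) and the SMAD3 IP moved by 0.42 (adjusted p = 0.716). With any of the 4 replicates left out, 0 of all tested genes passed for the SMAD3 IP, so that its 2 calls could not be checked in this way, and the same held for the mock IP without either stimulated replicate. The mock IP calls of 6 higher and 4 lower became 12 and 15 without unstimulated replicate 1, against 15.5% and 24.7% of all genes, and 34 and 11 without unstimulated replicate 2, against 44.7% and 16.5%.

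**Figure D4:**
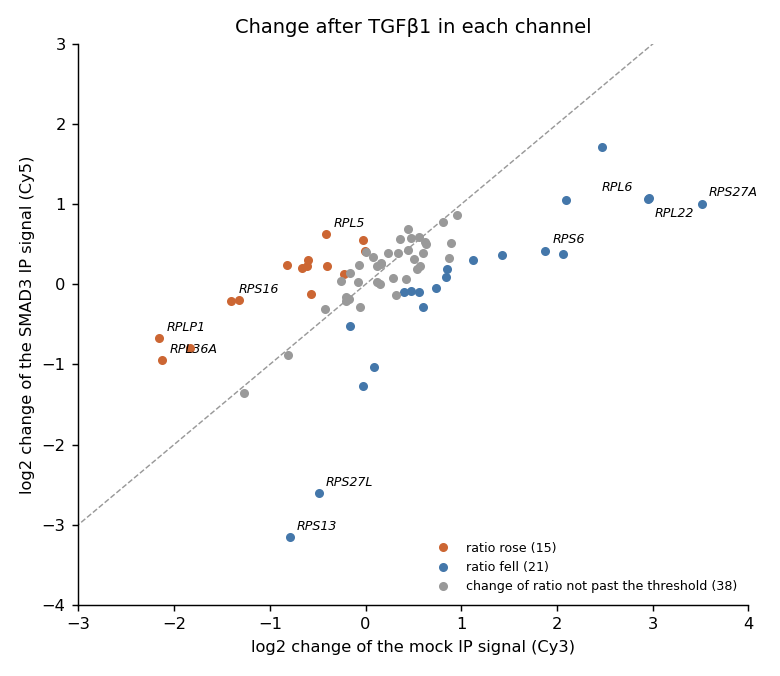
Change of the mock IP signal (x axis) against that of the SMAD3 IP signal (y axis) after TGFβ1, log2 scale, for the 74 members, with a dashed line where the ratio is unchanged. Genes whose ratio fell lie mostly to the right, at higher mock IP, in 17 of 21 genes. The other 4, RPS13, RPS27L, RPL26 and RPS24, had a lower SMAD3 IP signal and a mock IP that was not higher, and RPS13 and RPS27L lie at the bottom.

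The large subunit genes and the small subunit genes changed at shares near that of all genes, and were not tested against each other. The ratio rose at 5 and fell at 12 of 38 large subunit genes, with a median change of -0.09. It rose at 7 and fell at 7 of 27 small subunit genes, with a median of -0.01. The changed genes were 44.7% and 51.9%, against 47.7% of all genes, of which 20.3% rose and 27.5% fell, with a median of -0.06. Of the 3 stalk genes, RPLP1 rose as described. RPLP0, the protein that anchors the stalk, had -1.01 and -1.22 before and -1.37 and -0.81 after, and RPLP2 had 0.44 and 0.29 before and 0.12 and 0.48 after. The replicates of the conditions overlapped at both genes, with changes of 0.03 (adjusted p = 0.928) and -0.07 (adjusted p = 0.759).

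Of the 6 paralogs, additional genes that encode a variant of another ribosomal protein, 2 rose and 2 fell, against 20.3% and 27.5% of all genes. RPL3L, the striated muscle paralog of RPL3, went from -0.36 and -0.67 to 0.47 in both replicates (change 0.99, SE 0.15, adjusted p = 0.000985), a call lost on measured probes (0.43, adjusted p = 0.0613), with all annotated probes (0.06, adjusted p = 0.637) and under 3 other alternatives. RPL26L1 went from -1.14 and -1.19 to -0.07 and -0.35 (change 0.95, SE 0.15, adjusted p = 0.0011). RPL7L1 went from 0.54 and 0.38 to -0.41 and -0.08 (change -0.70, SE 0.16, adjusted p = 0.0074). This call was lost under 3 alternatives, among them normexp (-0.72, adjusted p = 0.0894) and leaving out stimulated replicate 1. The direction turned with the median of probes. The groups did not overlap in these 3 genes. RPL10L, expressed in testis, had 0.07 and 0.10 before and 0.30 and 0.35 after (adjusted p = 0.168), and RPL39L had 0.15 and 0.51 before and 0.44 and 0.04 after (adjusted p = 0.735).

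A short list of genes mutated in Diamond-Blackfan anemia, 8 of them tested, left out other members mutated in it. RPL15, RPL31 and RPS15A are among those left out, and all 3 were below the array median in both conditions. RPL26 and RPL35 are left out as well. RPL35 was above the median in both conditions (1.16 and 0.73), and RPL26 was above it before TGFβ1 (0.98) and below it after (-0.33). Of the 8 listed genes, 4 were above the median and 0 below it in unstimulated cells, against 20.7% and 38.1% of all genes, and after TGFβ1 again 4 and 0, against 16.5% and 42.5%. At an unadjusted p under 0.05 in limma, 0 were below it in unstimulated cells and 2 in stimulated cells. RPS7, RPS19 and RPS24 were above it in both conditions. The change was a rise at 1 (RPL5) and a fall at 2 (RPS10 and RPS24), 37.5% of the list against 47.7% of all genes. RPS19 had 0.41 and 0.45 before and 0.34 and 0.61 after, with overlapping replicates (change 0.04, SE 0.15, adjusted p = 0.836). In the narrower window from 500 bp upstream to 250 bp downstream its change was 1.06 (adjusted p = 0.00547). RPL11, the partner of RPL5 in the 5S particle, had 0.26 and -0.13 before and 0.0045 and -0.07 after, with overlapping replicates as well (change -0.10, SE 0.16, adjusted p = 0.655).

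RPL13A, a target of the interferon-dependent GAIT pathway, had -0.01 and 0.32 before and 0.03 and 0.36 after (change 0.04, adjusted p = 0.879), again with overlap. RPSA had -0.51 and -0.57 before and 0.10 and -0.25 after. Its rise of 0.46 (SE 0.16, adjusted p = 0.041) was not past the threshold under 7 alternatives. Among them were normexp (0.07, adjusted p = 0.528) and leaving out unstimulated replicate 1, unstimulated replicate 2 or stimulated replicate 1. RPS3, a small subunit protein with a role in DNA repair, had 2 window probes and was not tested.

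Members with a SMAD element in their promoter entries were set beside those without. Of 14 tested members with CAGACA, the ratio rose at 1 and fell at 4, and of 47 without, it rose at 6 and fell at 15, while among all genes 20.3% rose and 27.5% fell. The median change was 0.05 with and -0.10 without the element. Of 14 members with GGCGCC, 3 rose and 3 fell, and of 47 without, 4 rose and 16 fell. The groups were not tested against each other.

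At the level of single probes, the ratio rose at 161 (11.4%) and fell at 181 (12.8%) of 1416 member probes, against 10.5% and 12.4% of all 473007 probes, 22.9% together. Of the 460 measured member probes, 102 rose (22.2%) and 108 fell (23.5%), against 19.0% and 25.5% of all measured probes. Over all member probes, measured or not, the counts of 161 and 181 both fell when any replicate was left out, and so did the shares of all probes.

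The ratio also varied with distance from the start. Measured member probes within 250 bp upstream had median ratios of 0.19 and 0.28 before TGFβ1 and 0.35 and 0.50 after it. Those more than 2000 bp upstream had -0.77 and -1.07 before and -0.65 and -0.79 after. All genes had the same order. Close to the start their medians were 0.16 and 0.13 before and 0.05 in both replicates after, and far upstream they were -0.55 and -0.71 before and -0.76 and -0.88 after. More than 250 and up to 800 bp downstream the members had 0.38 and 0.44 before and 0.61 and 0.54 after, whereas all genes had -0.06 and -0.14 before and -0.20 and -0.22 after. The bins of the members held between 30 and 91 measured probes, several from 1 gene, and these differences were not tested.

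**Figure D5:**
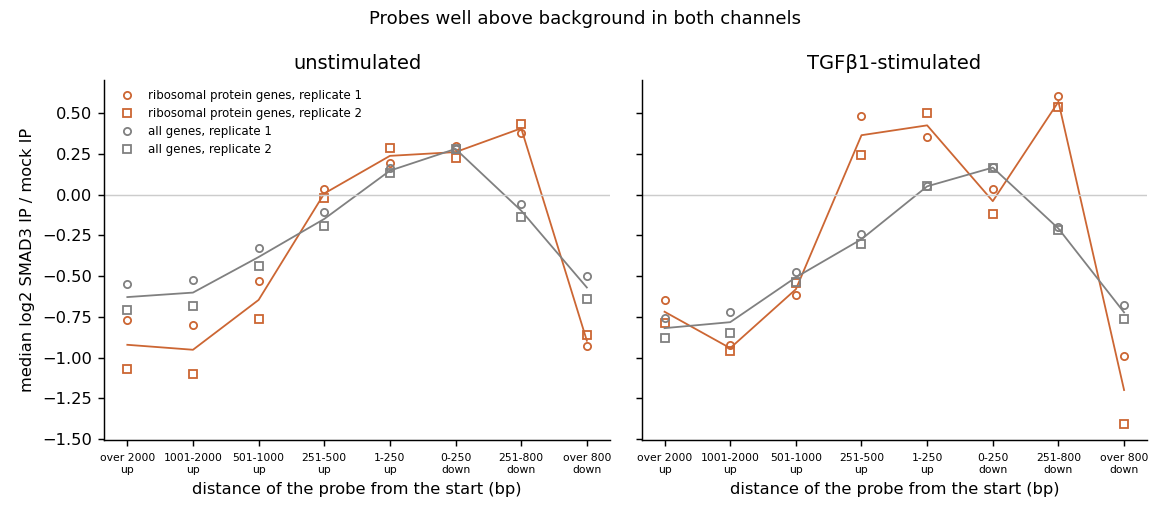
Median log2 SMAD3 IP over mock IP ratio (y axis) of measured probes in bins of distance from the annotated start (x axis), for ribosomal protein genes (orange) and all genes (gray), with a mark for each replicate and a line through their mean. Medians are lowest far from the start in both sets. The members are highest more than 250 and up to 800 bp downstream, and all genes within 250 bp downstream.

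Other genes of translation also changed in both directions, at 36.4% of the translation factors, 28.6% of the ribosome biogenesis genes and 46.5% of the mitochondrial ribosomal protein genes, against 47.7% of all genes. Of 11 tested translation factors and other genes with a pyrimidine tract, the ratio rose at EIF4B, an initiation factor (3.13), and fell at EEF1D (-0.73), EEF2, the translocation factor (-4.52), and GNB2L1, a scaffold on the small subunit (-0.98). Of 14 ribosome biogenesis genes, it rose at FBL, the rRNA methyltransferase (2.57), and fell at NOL5A (-1.17), NOLC1 (-0.65) and BOP1 (-1.03). Of 71 mitochondrial ribosomal protein genes, 16 rose and 17 fell, with a median change of 0.04. Of 6 genes that the study presented as SMAD3 targets from these samples, and which are therefore not independent of them, 1 rose and 4 fell on this measure.

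The calls depended strongly on the treatment of dim probes. With normexp, 2 members rose and 6 fell, against 4.19% and 6.45% of all genes. Those that passed included RPL5 (0.57, adjusted p = 0.0376), RPL26L1 (0.59, adjusted p = 0.0242), RPL6 (-1.22, adjusted p = 0.0150) and RPS27A (-1.07, adjusted p = 0.0218). With the median in place of the mean over probes, 2 rose and 4 fell, against 4.79% and 6.18%.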

How the data were processed

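Per the labels and file headers, the authors hybridized SMAD3 IP (Cy5) and mock IP (Cy3) DNA of A549 cells together to Agilent promoter arrays and extracted an intensity per spot and channel with Feature Extraction 9.5.1.1. The deposited intensities had been background-subtracted, detrended and scaled per dye within each array, with surrogates for signals not above background, and were not normalized between arrays. The deposited log2 ratios of the series table matched those computed from the processed intensities within 3.13e-06. The probe annotation names no genome build, so distances and no coordinates of probes are given.

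Control spots and 1404 outlier-marked probes were left out. Log2 ratios were centered on the median of each array (0.24 to 0.72 before centering), joined over both slides and averaged per gene over probes from 2000 bp upstream to 800 bp downstream, for genes with at least 3. limma 3.58.1 in R 4.3.3 was fitted to all 4 replicates without a block, with Benjamini-Hochberg adjustment over 16299 genes (threshold 0.05). The fit was tested on simulated data. Python 3.11.15, numpy 2.4.6, pandas 2.3.3 and matplotlib 3.10.9 were used for the rest. The number of arrays limits the precision. Dyes were not swapped, so dye and IP cannot be told apart.

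The members and gene lists were chosen with earlier results of these data known. Named were the 4 members with the largest difference in each direction of each ratio test, a set of well-known members (RPLP0, RPLP1, RPLP2, RPSA, RPS6, RPS3, RPL5, RPL11, RPS19, RPL13A and RPS27A) and the paralogs on the arrays, and, for genes named for their change, the measured probe with the largest change. Some members are not reported here by name, though they enter the counts. Other probes and members were named after their values were seen. Alternatives were normexp (offset 50), loess, no centering, filters on dim probes, other windows, the median over probes, at least 1 probe, each slide alone, a replicate block and leaving out replicates. No marker check of the cell type was possible, since the arrays hold DNA. Promoter sequences and motifs came from RefSeq, GRCh38.p14, and 16 members were not found in that table.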

Additional observations from a re-analysis of the deposited data

Results flagged for a closer look

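At 10 members the ratio passed against the array median in both conditions, on opposite sides (limma, adjusted p under 0.05). The test of the difference between conditions passed at these members as well. It came from the same fit, and the choice of these members made that outcome all but certain, so it adds no support. Of them, 6 were higher before and lower after TGFβ1 and 4 the reverse, against 808 and 464 of all 16299 tested genes. The fall was -1.77 at RPL22, -1.31 at RPL26, -0.82 at RPL36, -1.18 at RPS15, -2.19 at RPS27L and -1.34 at RPS6 on the log2 scale. The rise was 0.99 at RPL3L, 1.02 at RPL7, 1.41 at RPLP1 and 0.80 at RPS25. All 9 window probes of RPL7 are shared with RDH10, so that its change cannot be assigned to either gene. None of the 10 passed with normexp (adjusted p between 0.0943 and 0.586). On measured probes alone, 8 of the 10 could be tested. RPL7 (0.53, adjusted p = 0.0294) and RPS27L (-1.61, adjusted p = 1.69e-05) passed, and RPL22 (-0.60, adjusted p = 0.0524), RPL26 (-0.36, adjusted p = 0.120), RPL36 (-0.11, adjusted p = 0.654), RPL3L (0.43, adjusted p = 0.0613), RPLP1 (-0.10, adjusted p = 0.692) and RPS15 (-0.40, adjusted p = 0.0817) did not. At RPL22, RPL26, RPL36, RPLP1 and RPS27L the mean over measured probes lay above the array median in both conditions. Single measured probes of RPLP1 and RPS27L lay below it.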

How the results depend on the processing

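Of 474 recomputed values of named members, 415 kept their direction and side of the threshold, 47 fell below it, 4 rose above it and 8 turned. With all annotated probes, unstimulated RPL35 became -0.040 and RPS15A 0.48, stimulated RPL35 -0.56, and the change of RPLP0 -0.29, the last 3 past the threshold in the opposite direction or newly past it (adjusted p = 0.000398, 0.00068 and 0.0361). With the window from 500 bp upstream to 250 bp downstream, unstimulated RPS27L became -0.26. With the median of probes the change of RPL7L1 became 0.17. The change of RPLP1 became -0.10 both with probes well above background in both channels and with those in at least 1 channel. Causes were not tested.

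Counts of members are given as higher and lower, of 74 tested unless stated. With normexp they were 1 and 2 in unstimulated cells, 7 and 8 in stimulated cells, 2 and 6 for the change, 22 and 47 for single probes, and 0 and 0 for both the SMAD3 IP and the mock IP signal (at an unadjusted p under 0.05 in limma, 0 and 0, and 8 and 0). The shares of all genes were 2.77% and 2.85%, 11.8% and 10.7%, and 4.19% and 6.45%, and those of all probes 1.74% and 2.91%. For both signals the share of all genes was 0%. With the median of probes they were 4 and 3, 7 and 6, and 2 and 4, with 1 and 1 for the SMAD3 IP and 3 higher for the mock IP. With loess they were 36 and 12 in unstimulated and 38 and 14 in stimulated cells, and without centering 45 and 9, and 51 and 11. The shares of all genes for these are given with the centering above. With all annotated probes (80 tested), 39 were lower in unstimulated cells, 5 higher and 47 lower in stimulated cells, and the mock IP fell at 7. In the same order, the shares of all genes were 54.5%, 7.21%, 58.9% and 5.78%. In the window from 500 bp upstream to 250 bp downstream (54 tested), 14 were lower after TGFβ1, 9 rose and 10 fell, and the SMAD3 IP rose at 1 and fell at 0 (5 at an unadjusted p under 0.05). Over all genes in this window, 31.7% were lower after TGFβ1, 18.1% rose and 25.0% fell. Their SMAD3 IP rose at 0.808% and fell at 1.56%. With each slide alone, the SMAD3 IP fell at 5 and the mock IP rose at 13 and fell at 12, against 5.48%, 12.9% and 16.3% of all genes. With probes well above background in both channels (50 tested, RPS13 and RPL5 not among them), 12 fell, the SMAD3 IP fell at 1, and the mock IP rose at 2 and fell at 2. All genes had 35.1%, 2.34%, 2.94% and 4.10% there, in the same order. With those in at least 1 channel (61 tested), the SMAD3 IP rose at 2 and the mock IP fell at 2, against 1.59% and 5.35% of all genes.

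Leaving out each replicate in turn gave 12 to 18 higher and 16 to 23 lower members in unstimulated cells, 7 to 18 and 15 to 27 in stimulated cells, and 12 to 13 and 16 to 19 for the change. Single probes gave 69 to 98 and 72 to 134. The SMAD3 IP gave 0 and 0 each time, when 0 of all genes passed (1 to 29 higher and 4 to 10 lower at an unadjusted p under 0.05), and the mock IP 0 to 34 and 0 to 15. A condition left with 1 replicate was assumed to vary like the other.

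Replicate numbers were not treated as pairs in the main fit. The deviations of same-numbered replicates in the ratio correlated with 0.11 over all genes and -0.16 over members. With so few replicates, these values cannot exclude a pairing. With the replicate block, 15 members rose and 22 fell, 128 and 147 single probes did so, the SMAD3 IP rose at 1 and fell at 2, and the mock IP rose at 3 and fell at 2. Over all genes, 22.2% rose and 29.6% fell, and over all probes 8.55% and 10.0%. The shares of all genes were 1.45% and 3.21% for the SMAD3 IP and 2.85% and 3.21% for the mock IP. All arrays were scanned on the same day, so a scan-date block was not run. Probes not well above background limit what can be read from single genes.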
